A study of Mus musculus with 96 samples.

Results

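Slc2a2, G6pc2, Pcx and Fbp1 are 4 genes through which glucose enters the pancreatic islet cell and is turned over there. They were taken by gene symbol from an expression table that lists 21990 mouse genes, 20155 of them with values, and each of the 4 symbols matched 1 entry. The values are FPKM, fragments per kilobase of transcript and per 1e+06 mapped fragments, measured by RNA sequencing in both tissues, islets and liver, of 48 mice. All mice were male C57BL/6N, were bought at 4 weeks of age, carry no transgene or deletion by the labels, and were fed chow diet (CD) or a high-fat diet with 60% fat (HFD). At each of weeks 4, 8, 12, 16, 20 and 24 on the diet, 4 CD and 4 HFD mice gave 1 islet and 1 liver library each, 96 libraries in all. Islets were freed with collagenase and hand-picked, and liver was cut from the same region, so each library is a mixture of cell types. Read depth was not derivable from the FPKM table, so the counting error of single values is unknown, and error is given as the SD over the 4 mice of a group.

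Glucose enters the mouse beta cell mainly through GLUT2, the low-affinity transporter encoded by Slc2a2, which the hepatocyte also carries. Phosphorylation then traps glucose as glucose 6-phosphate, and the islet enzyme encoded by G6pc2, the catalytic subunit 2 of glucose 6-phosphatase, reverses this step in the endoplasmic reticulum. Pyruvate carboxylase, encoded by Pcx, makes oxaloacetate from pyruvate, which feeds pyruvate cycling in the beta cell and gluconeogenesis in the hepatocyte. Fructose-1,6-bisphosphatase 1, encoded by Fbp1, removes a phosphate from fructose 1,6-bisphosphate and is a rate-limiting enzyme of gluconeogenesis in liver.

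The tissue markers followed the labels. Ins1 and Ins2, the insulin genes, made up from 53.7% to 75.1% of the summed FPKM of an islet library, with a median of 65.2% in CD and 69.4% in HFD mice. In liver libraries this share was at most 0.556%. From Alb, the albumin gene, the share of liver RNA in an islet library was estimated at 0.134% or less. FPKM are scaled to the mapped fragments of a library, so the level of another islet gene also depends on how many fragments insulin takes. FPKM do not add up to a fixed total, and the sum ran from 892097 to 1278652 in islet libraries. The insulin share of summed FPKM is therefore not its share of fragments.

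In the 48 islet libraries, G6pc2 had a mean of 1275 FPKM (range 785 to 2101), the 23rd highest mean of 20152 gene symbols. Slc2a2 stood at a mean of 213.03 FPKM (86.5 to 357), at place 176. Pcx had a mean of 42.7 FPKM (31.3 to 58.6), at place 1164, and Fbp1 a mean of 2.32 FPKM (0.58 to 4.25), at place 10210. The liver gave another order. Fbp1 had the highest mean there at 665 FPKM (485 to 1151), ahead of Pcx at 156 FPKM (76.1 to 309.6) and Slc2a2 at 95.4 FPKM (32.7 to 145), and G6pc2 was last at 0.284 FPKM (0 to 5.42). In both tissues no neighbours in this order overlapped in range, except Slc2a2 and Pcx in liver. Slc2a2 was higher in the islet than in the liver library of 46 of 48 mice, with a ratio of means of 2.23. Pcx was higher in the liver of 48 of 48 mice (3.66 times by the means), and so was Fbp1 (287 times). Of the 4 genes set together for islet glucose handling, the transcripts of Pcx and Fbp1 were thus more abundant in liver, and Fbp1 was at a low level in islets. Of the spread within groups of 4 islet libraries, the median coefficient of variation was 8.12% for Pcx, 14.3% for G6pc2, 14.7% for Slc2a2 and 21.8% for Fbp1.

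The sequence in front of each gene is shown because the same genes gave such unequal levels in both tissues. These are the 250 bases before the annotated start in RefSeq (GRCm38.p6), written 5′ to 3′ on the strand of the gene. Capitals mark matches, on either strand, to TATAAA (the TATA box), CCAAT (the CCAAT box, ATTGG when it lies on the opposite strand), GGGCGG (the GC box), CACGTG (the palindromic E-box), TGACG (the core of the cAMP response element) or TGTTTNC (a forkhead motif).
G6pc2 (chr2:69210823-69211072, plus strand): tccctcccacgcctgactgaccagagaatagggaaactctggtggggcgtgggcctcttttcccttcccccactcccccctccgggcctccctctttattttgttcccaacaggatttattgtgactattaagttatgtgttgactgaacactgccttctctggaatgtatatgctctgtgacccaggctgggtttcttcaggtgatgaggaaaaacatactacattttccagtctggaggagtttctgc
Slc2a2 (chr3:28697653-28697902, plus strand): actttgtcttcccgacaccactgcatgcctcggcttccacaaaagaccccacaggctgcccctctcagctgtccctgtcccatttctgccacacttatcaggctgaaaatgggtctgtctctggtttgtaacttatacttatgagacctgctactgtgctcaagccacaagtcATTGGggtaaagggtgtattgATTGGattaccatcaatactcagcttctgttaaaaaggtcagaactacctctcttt
Fbp1 (chr13:62888283-62888532, minus strand): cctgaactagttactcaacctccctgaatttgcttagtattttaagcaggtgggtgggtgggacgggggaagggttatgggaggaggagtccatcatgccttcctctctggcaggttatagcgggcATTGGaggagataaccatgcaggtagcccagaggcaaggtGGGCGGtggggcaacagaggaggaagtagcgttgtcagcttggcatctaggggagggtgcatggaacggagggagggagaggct
Pcx (chr19:4510222-4510471, plus strand): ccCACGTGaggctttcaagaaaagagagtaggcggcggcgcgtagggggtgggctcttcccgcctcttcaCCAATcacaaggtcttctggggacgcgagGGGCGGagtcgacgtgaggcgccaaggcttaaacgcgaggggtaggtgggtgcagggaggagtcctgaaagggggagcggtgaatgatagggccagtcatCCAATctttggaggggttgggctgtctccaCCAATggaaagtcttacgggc
G6pc2, the most abundant of the 4 in islets, held none of the 6 motifs in this window and had a GC content of 50.0%, where the median over 32851 promoters was 52.4%. Slc2a2 held 2 CCAAT boxes, both on the opposite strand, 77 and 56 bases before the start. Fbp1 held 1 CCAAT box on the opposite strand at 124 bases and 1 GC box at 84 bases. Pcx held the E-box at 248 bases, CCAAT boxes at 180, 51 and 21 bases, and a GC box at 151 bases before the start. Over all promoters, CCAAT was found in 33.8%, GGGCGG in 32.7%, CACGTG in 6.02%, TATAAA in 12.4%, TGACG in 17.8% and TGTTTNC in 17.8%. Matches in these 4 promoters are a description of letters, and those without a match say only that the letters are not in the window. RefSeq gives Pcx another start, at chr19:4594069-4594318 for its 250 bases, with no match and a GC content of 58.0%. The FPKM are summed per gene, so transcripts from the different starts of Pcx cannot be told apart. For G6pc2 only the window at the deposited gene start is shown, and any RefSeq start further inside the gene was left out.

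By the deposited annotation, Slc2a2 (Entrez gene 20526) lies at chr3:28697903-28728361 and G6pc2 (14378) at chr2:69211073-69227993. Pcx (18563) lies at chr19:4510472-4621752, all 3 on the plus strand, and Fbp1 (14121) at chr13:62858988-62888298 on the minus strand. The Fbp1 entry holds 5 transcripts, 3 of them with names that begin with BGI, while the other 3 genes hold 0 such transcripts. How much each transcript adds to the FPKM of Fbp1 cannot be told from values per gene. The gene Lrfn4 lies inside Pcx, with a median of 16.9 FPKM in islets and 0.63 FPKM in liver. Whether the libraries kept the strand is not stated in the sources used here, so reads of Pcx and Lrfn4 in the shared stretch may not have been separated. Slc2a2 and Fbp1 each overlap a long non-coding gene in RefSeq, 1700112D23Rik and Gm38679, which were not analysed here.

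HFD was compared with CD to ask how the diet moves each gene over the time course. For the mean effect over the 6 weeks, the log2(FPKM + 1) values of the 48 libraries of a tissue were fitted by limma, with Benjamini-Hochberg adjustment over all genes tested, and genes were called at an adjusted p under 0.05. Fold changes on this scale understate the change of low genes such as Fbp1 in islets. In islets all 4 genes were called, and Fbp1, Slc2a2 and Pcx fell while G6pc2 rose, where 38.6% of all 12378 genes tested were called, 22.0% lower and 16.6% higher. Fbp1 fell by 0.57 on the log2 scale (SE 0.0586, adjusted p = 1.64e-10 by limma) and Slc2a2 fell by 0.36 (SE 0.0892, adjusted p = 0.00147 by limma). Pcx fell by 0.20 (SE 0.0346, adjusted p = 1.65e-05 by limma), and G6pc2 rose by 0.21 (SE 0.0766, adjusted p = 0.0277 by limma). The weekly group mean was lower in HFD in 6 of 6 weeks for Fbp1, Slc2a2 and Pcx, and higher in 5 of 6 weeks for G6pc2. With any 1 of the 48 mice left out, the 4 calls held. With insulin left out of the total they held as well, while the share of higher genes among all called genes went from 43.1% to 77.6%. These are bulk libraries, in which fewer cells of a type and less RNA per cell cannot be told apart.

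**Figure D1:**
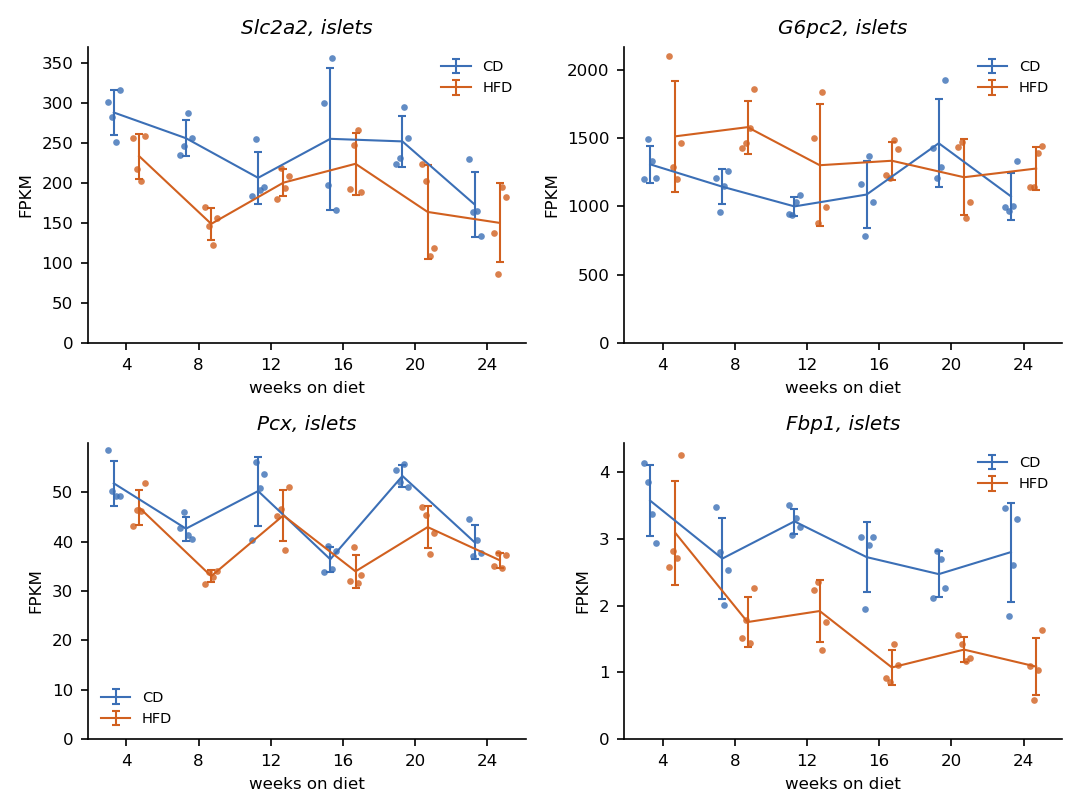
FPKM of Slc2a2, G6pc2, Pcx and Fbp1 in islets (vertical axes, linear, from 0) by weeks on diet (horizontal axes), with 1 point per mouse and lines through the means with SD of the 4 mice of each diet, CD in blue and HFD in orange. The Fbp1 points of both diets are apart from week 12 to week 24, those of Slc2a2 and G6pc2 only at week 8, and those of Pcx at weeks 8 and 20.

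Week by week, the 4 HFD libraries were tested against the 4 CD libraries of the same week. Of the 24 pairs of gene and week in islets, 8 were called, 7 lower and 1 higher in HFD. At week 4, 0 of the 4 genes and 0 of 11569 genes were called by limma (0% of all genes tested), although 854 genes and, among the 4, Slc2a2 had an unadjusted p under 0.05. At week 8 Slc2a2, Pcx and G6pc2 were called (5.27% of all genes tested), and at week 12 (4.53%) Fbp1 was. At week 16 (8.45%) and week 24 (8.30%) Fbp1 was called, and at week 20 (4.74%) Fbp1 and Pcx were.

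Slc2a2, the transporter, was lower in HFD islets most clearly at week 8. At week 4 its levels were 302, 283, 252 and 317 FPKM in the CD mice and 257, 218, 202.8 and 259 FPKM in the HFD mice, and the groups overlapped at their edge only. At week 8 they were 235, 246, 288 and 256 FPKM in CD and 171, 146, 123 and 157 FPKM in HFD islets. The lowest CD mouse of week 8 was above the highest HFD mouse, as in 17.2% of all genes in one direction or the other. The HFD mean of week 8, 149 ± 20.1 FPKM, was 0.582 of the CD mean of 256 ± 22.8 FPKM (SD, n = 4 each). On the log2 scale Slc2a2 fell by 0.78 (SE 0.0998, adjusted p = 0.00475 by limma), where the median over all genes was -0.11.

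After week 8 the Slc2a2 groups overlapped. At week 12 the CD mice had 184, 255, 192 and 196 FPKM and the HFD mice 181, 219.5, 194 and 209 FPKM, and at week 16 the CD mice spread from 167 to 357 FPKM around HFD mice at 193, 248, 267 and 189 FPKM. At week 20 the CD mice had 225, 232, 296 and 257 FPKM. Of the HFD mice of week 20, 1 was level with the lowest CD mouse at 225 FPKM, 1 was below it at 203.3 FPKM, and 2 were far below at 109 and 119 FPKM. The week 20 change of -0.68 (SE 0.235) did not pass (adjusted p = 0.116 by limma), and without mouse HFD511, the HFD mouse at 225 FPKM, it did (adjusted p = 0.0331 by limma). At week 24 both diets were lower, with 231, 165, 165 and 134 FPKM in CD and 137, 86.5, 195 and 183 FPKM in HFD islets.

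Along the time course Slc2a2 fell under both diets. From week 4 to week 24 it fell by 0.75 on the log2 scale in CD islets (SE 0.219, adjusted p = 0.00795 by limma, 31.6% of all genes called) and by 0.69 in HFD islets (SE 0.219, adjusted p = 0.00952 by limma, 45.1% called). Age, time on the diet and the day of collection cannot be told apart in these comparisons. The diet effect on Slc2a2 in weeks 16 to 24 minus that in weeks 4 to 12 was 0.02 and did not pass (SE 0.178, adjusted p = 0.966 by limma, 3.16% of all genes called). The beta cell marker list, 8 genes, had 4 higher and 1 lower gene in HFD over the 6 weeks, Iapp at 0.35 and Mafa at -0.30. At week 8 it had 0 higher and 2 lower genes, the zinc transporter gene Slc30a8 at -0.43 and the incretin receptor gene Glp1r at -0.52. Markers of other islet cells were lower at week 8 too, Gcg of alpha cells by 0.58 and Sst of delta cells by 0.71, and 2 of 4 delta cell genes fell. Over the 48 islet libraries r of Slc2a2 was 0.53 with Gcg and 0.54 with Sst, and 0.44 and 0.38 within groups. With the beta cell genes Ins1 and Slc30a8 it was -0.18 and 0.34, and -0.17 and 0.36 within groups. With the acinar gene Prss2 it was -0.31, and -0.21 within groups. The part of these markers in the Slc2a2 result was not tested.

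G6pc2, which works against glucose phosphorylation, was the member that was higher in HFD islets. At week 8 the CD mice had 1208, 962, 1152 and 1256 FPKM and the HFD mice 1426, 1467, 1571 and 1858 FPKM. Each HFD mouse was above each CD mouse, as in 1.43% of all genes at this week, while 15.8% were apart with HFD lower. The means were 1145 ± 129 FPKM in CD and 1580.5 ± 195 FPKM in HFD islets (SD, n = 4 each), a ratio of 1.38. The rise of 0.46 (SE 0.105) was close to the threshold (adjusted p = 0.0329 by limma). It was lost in 7 of 8 fits that left out 1 mouse, all but that without mouse HFD217, and without the filter on low values (adjusted p = 0.070 by limma).

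In the other weeks the G6pc2 groups overlapped. At week 4, 1 HFD mouse stood at 2101 FPKM over HFD mice at 1291, 1201 and 1461 FPKM and CD mice at 1202, 1490.2, 1333 and 1208 FPKM. At week 12 the HFD mice were split, 1498 and 1834 FPKM against 880.2 and 995 FPKM, while the CD mice lay between 938 and 1082 FPKM. At week 20 the order of the means turned, with 1425, 1209.6, 1291 and 1925 FPKM in CD and 1436, 1469, 919 and 1032 FPKM in HFD islets. The week 20 difference of -0.27 (SE 0.187, adjusted p = 0.374 by limma) did not pass. At week 16 HFD islets had 1205 to 1484 FPKM and CD islets 785 to 1369 FPKM. At week 24, 3 of the CD mice were at 997, 964 and 1002 FPKM, below HFD mice at 1141, 1139, 1389 and 1441 FPKM, and the CD mouse CD608 was among the latter at 1333 FPKM. The week 24 change of 0.25 (SE 0.113, adjusted p = 0.189 by limma) passed without CD608 (adjusted p = 0.0381 by limma). G6pc2 did not pass from week 4 to week 24, at -0.29 in CD (adjusted p = 0.241 by limma) and -0.22 in HFD islets (adjusted p = 0.359 by limma). Over the 48 islet libraries r of G6pc2 was -0.47 with Prss2 and -0.45 with Cela2a, both acinar genes. Within groups it was -0.20 and -0.11. The acinar markers summed to a mean of 9925 FPKM in CD and 15512 FPKM in HFD islets of week 8. At week 12 these means were 47873 and 18504 FPKM. The HFD mean was lower at weeks 4, 12, 16 and 24 and higher at weeks 8 and 20. The part of acinar RNA in the G6pc2 result was not tested.

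The ratio of G6pc2 to Slc2a2 FPKM within a library is free of any scaling between libraries, but not of differences in length between genes. It ran from 3.90 to 5.14 in the CD and from 8.36 to 12.8 in the HFD islets of week 8. At week 4 it ran from 3.81 to 5.28 in CD and from 5.64 to 8.19 in HFD islets, so that this ratio did not overlap between the diets at either week. From week 12 to week 24 the ranges overlapped, and the mean ratio was higher in HFD at each week, 9.12 ± 2.74 against 6.55 ± 2.41 at week 24 (SD, n = 4 each). The ratio was formed after the values were seen and carries no test.

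**Figure D2:**
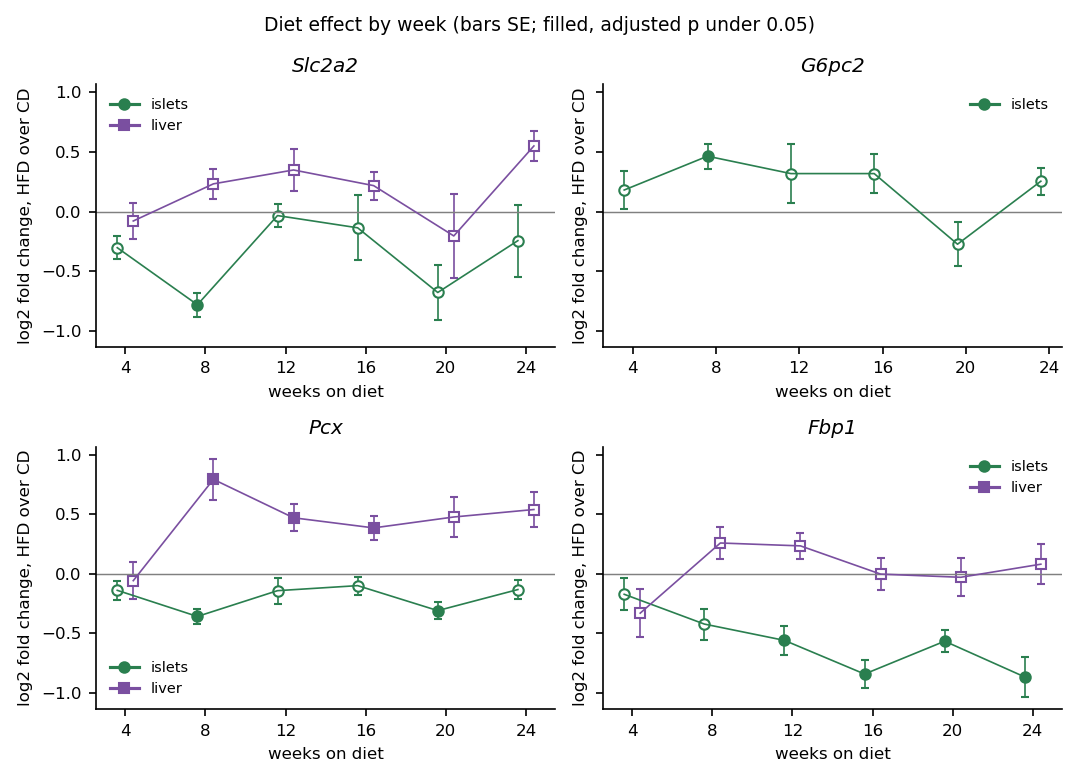
Log2 fold change of HFD over CD on log2(FPKM + 1) (vertical axes) by weeks on diet (horizontal axes) for each gene, in islets (green circles) and liver (purple squares), with bars for the SE and filled symbols for an adjusted p under 0.05 by limma. Islet Fbp1 is at or below -0.56 from week 12 on, Pcx is below 0 in islets and above 0 in liver from week 8 on, and G6pc2 has no liver values because it did not reach the filter there.

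Pcx, the anaplerotic carboxylase, had the smallest spread of the 4 genes and was lower in HFD islets at weeks 8 and 20. At week 8 the CD mice had 42.7, 46.0, 41.3 and 40.5 FPKM and the HFD mice 31.3, 33.8, 32.8 and 34.1 FPKM. The groups did not overlap, as in 17.2% of all genes at this week (15.8% lower in HFD). The means were 42.6 ± 2.44 and 33.0 ± 1.24 FPKM (SD, n = 4 each), and Pcx fell by 0.36 (SE 0.0615, adjusted p = 0.012 by limma). The median over all genes was -0.11 at this week, and with median ratio scaling Pcx was at -0.24 and did not pass (adjusted p = 0.067 by limma). At week 20 the CD mice had 54.5, 52.0, 55.7 and 51.0 FPKM and the HFD mice 47.0, 45.5, 37.5 and 41.8 FPKM. These did not overlap either (14.6% of all genes did not), and Pcx fell by 0.31 (SE 0.0747, adjusted p = 0.0471 by limma), a call that was lost in 7 of 8 fits without 1 mouse and with median ratio scaling (adjusted p = 0.055 by limma). Over the 48 islet libraries r of Pcx was 0.45 with Gcg and 0.58 with Sst, and 0.24 and 0.30 within groups, and the part of these alpha and delta cell markers in the Pcx result was not tested.

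In the other 4 weeks the Pcx groups overlapped, and the week 4 to week 24 change was similar in size under both diets. At week 4 CD mice had 58.6, 50.3, 49.2 and 49.2 FPKM and HFD mice 43.2, 46.4, 46.1 and 51.9 FPKM, so that 1 HFD mouse reached into the CD range. At week 12 the range was 40.3 to 56.2 FPKM in CD and 38.4 to 51.1 FPKM in HFD islets, and at week 16 it was 33.9 to 39.1 and 31.7 to 39.0 FPKM. At week 24 it was 37.1 to 44.5 FPKM in CD and 34.7 to 37.8 FPKM in HFD islets. Pcx fell by 0.37 in CD (SE 0.0847, adjusted p = 9.25e-04 by limma) and by 0.36 in HFD islets (SE 0.0847, adjusted p = 5.59e-04 by limma) from week 4 to week 24. The levels did not move evenly, and under both diets the means of weeks 8 and 16 lay below those of weeks 12 and 20, as the plot of islet levels by week shows. Week and collection cannot be told apart.

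Fbp1 had the largest mean change over the 6 weeks of the 4 genes in islets on the log2 scale, from a low level. On that scale Slc2a2 had the larger difference at weeks 4, 8 and 20. In FPKM this order held at weeks 4 and 8. At week 20 the HFD mean in FPKM was 0.543 of the CD mean for Fbp1 and 0.650 of it for Slc2a2. At week 4 the CD mice had 4.13, 3.85, 3.37 and 2.93 FPKM and the HFD mice 2.57, 2.81, 2.71 and 4.25 FPKM, overlapping through the HFD mouse HFD118. At week 8 they had 3.47, 2.80, 2.01 and 2.53 FPKM and 1.52, 1.79, 1.44 and 2.26 FPKM, with 1 HFD mouse inside the CD range. The week 8 change of -0.42 (SE 0.131) did not pass (adjusted p = 0.0742 by limma), and without HFD217 it did (adjusted p = 0.0308 by limma).

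From week 12 to week 24 no HFD islet library reached the lowest CD library of its week. At week 12 CD mice had 3.50, 3.05, 3.31 and 3.18 FPKM and HFD mice 2.23, 2.35, 1.33 and 1.76 FPKM. Here 10.4% of all genes did not overlap (3.47% lower in HFD), and Fbp1 fell by 0.56 (SE 0.122, adjusted p = 0.00582 by limma). With insulin left out of the total, this week's change was -0.34 and did not pass (adjusted p = 0.057 by limma). At week 16 CD mice had 3.02, 1.95, 2.91 and 3.02 FPKM and HFD mice 0.91, 0.85, 1.42 and 1.11 FPKM (15.4% did not overlap, 8.77% lower in HFD), a fall of 0.84 (SE 0.118, adjusted p = 4.07e-04 by limma). In the CD group of week 16, mouse CD403 at 1.95 FPKM stood below the other mice. At week 20 CD mice had 2.11, 2.82, 2.69 and 2.26 FPKM and HFD mice 1.56, 1.42, 1.17 and 1.21 FPKM. Here 14.6% of all genes did not overlap (9.76% lower in HFD), and Fbp1 fell by 0.57 (SE 0.0946, adjusted p = 0.0131 by limma). At week 24 CD mice had 3.46, 1.84, 2.60 and 3.30 FPKM and HFD mice 1.09, 0.58, 1.04 and 1.63 FPKM (16.1% did not overlap, 2.41% lower in HFD), a fall of 0.87 (SE 0.169, adjusted p = 0.00905 by limma). In FPKM, the HFD mean was 0.588 of the CD mean in week 12, then 0.394, 0.543 and 0.388 of it in weeks 16, 20 and 24.

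Within HFD islets Fbp1 fell by 0.98 on the log2 scale from week 4 to week 24 (SE 0.144, adjusted p = 5.76e-07 by limma), and in CD islets the change was -0.28 (SE 0.144, adjusted p = 0.131 by limma). The diet effect in the late weeks minus that in the early weeks was -0.37 (SE 0.117) and did not pass (adjusted p = 0.0683 by limma). It passed at -0.62 with a pseudocount of 0.1 (adjusted p = 0.0358 by limma) and at -0.43 with insulin left out of the total (adjusted p = 0.0307 by limma).

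Markers of the other islet cells moved with Fbp1. Gcg, the glucagon gene of alpha cells, had a mean of 14571 FPKM in the CD and 13183 FPKM in the HFD group of week 4, of 12665 against 4809 FPKM in those of week 12, and of 10209 against 1358 FPKM in those of week 24. As the mean over the 6 weeks Gcg fell by 1.57 and Irx2, another alpha cell gene, by 0.96. Gcg ran from 6678 to 15018 FPKM in the 24 CD libraries and from 950.1 to 14280 FPKM in the 24 HFD libraries. Of the delta cell list, 4 of 4 genes fell, Sst, the somatostatin gene, by 1.49, with summed levels of 2177 to 4844 FPKM in CD and 330.3 to 3996 FPKM in HFD islets. Over the 48 islet libraries, which share tissue, depth unknown and the insulin share, Pearson's r of log2(FPKM + 1) was 0.89 between Fbp1 and Gcg and 0.87 between Fbp1 and Sst. Taken within groups, after subtraction of the group means, it was 0.56 for Gcg and 0.41 for Sst. For Krt19, a ductal gene, r was 0.69 over all libraries and 0.53 within groups, and for the hepatocyte genes Alb and Apoa1 it was -0.02 and 0.21 over all libraries and 0.50 and 0.44 within groups. The ductal genes went both ways. Krt19 had a median of 2.495 FPKM in CD and 1.105 FPKM in HFD islets, Sox9 of 0.435 and 0.21 FPKM, and Cftr of 0.04 and 0.03 FPKM. Krt7 had a median of 116.0 FPKM in CD and 118.4 FPKM in HFD islets, and Spp1 of 25.6 and 27.3 FPKM. The 5 genes summed to a median of 145.3 FPKM in CD and 152.2 FPKM in HFD islets, a sum made up mostly of Krt7. The HFD mean of this sum was lower at weeks 4, 8, 12 and 16 and higher at weeks 20 and 24. The part of alpha, delta and ductal cell RNA in the Fbp1 result was not tested.

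**Figure D3:**
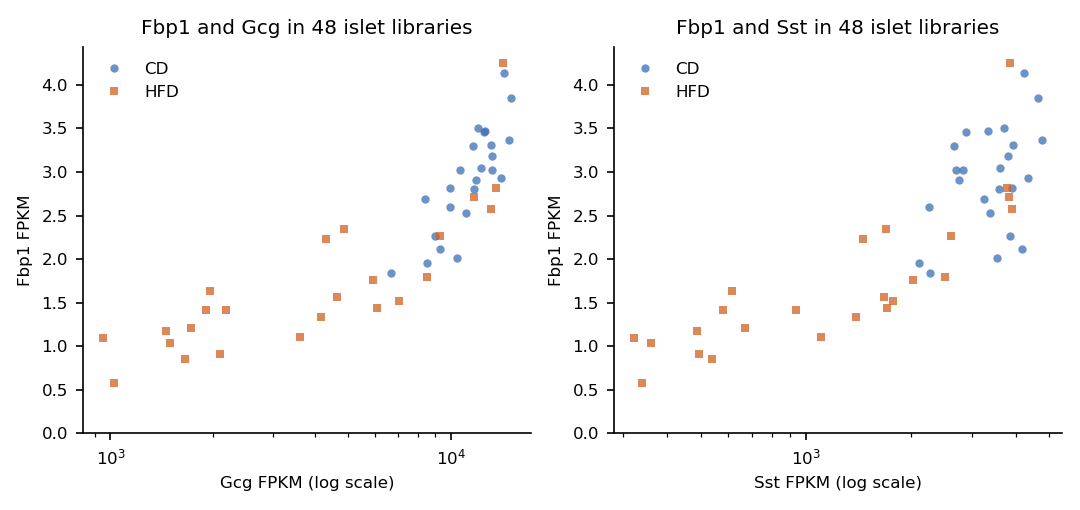
Fbp1 FPKM (vertical axes, linear) against FPKM of Gcg, the alpha cell hormone gene (left), and Sst, the delta cell hormone gene (right), on log horizontal axes, with 1 point per islet library, CD as blue circles and HFD as orange squares. HFD libraries extend to the lower left, down to 0.58 FPKM of Fbp1, while Gcg falls to 950.1 FPKM and Sst to 321 FPKM.

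Because Fbp1 is so abundant in liver, its level was also set beside the liver RNA in the islet preparations. From the Alb share, liver RNA would give 0.945 of the 2.23 FPKM of Fbp1 in the islets of mouse HFD313 at week 12, the largest such value. With the share of the other tissue subtracted from each library, Fbp1 fell by 0.62 as the mean over the 6 weeks (adjusted p = 4.54e-12 by limma). The hepatocyte list in islets had 1 higher gene (Alb) and 1 lower gene of 4 tested, with summed levels of 9.80 to 32.6 FPKM in CD and 6.97 to 132 FPKM in HFD islets. The largest of these sums was in HFD118, the mouse with the high week 4 Fbp1, where Apoa1, a hepatocyte lipoprotein gene, was at 109 FPKM.

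In liver, Pcx rose with HFD while Slc2a2 and Fbp1 did not pass. For the mean over the 6 weeks, Pcx rose by 0.43 (SE 0.0629, adjusted p = 6.26e-07 by limma), where 42.6% of 10879 genes tested were called and the median over all genes was 0.08. Slc2a2 had a change of 0.18 (SE 0.0865, adjusted p = 0.0958 by limma) and Fbp1 one of 0.03 (SE 0.0667, adjusted p = 0.707 by limma). Without mouse HFD518, whose liver had 32.7 FPKM of Slc2a2 at week 20 where the other HFD mice had 125, 88.0 and 71.5 FPKM, the Slc2a2 change was 0.24 and passed (adjusted p = 0.00299 by limma).

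Liver Pcx was apart between the diets in 4 of 6 weeks. At week 8 CD mice had 135, 108, 104.5 and 76.1 FPKM and HFD mice 198, 202, 183 and 146 FPKM (15.1% of all genes did not overlap), a rise of 0.79 (SE 0.174, adjusted p = 0.0302 by limma, 7.49% called). At week 12 CD mice had 99.3, 122, 117.8 and 129 FPKM and HFD mice 183, 174, 139.5 and 154 FPKM (18.1% did not overlap), a rise of 0.47 (SE 0.115, adjusted p = 0.0328 by limma, 10.6% called). At week 16 CD mice had 135, 139.5, 109 and 125 FPKM and HFD mice 158, 168, 161 and 176 FPKM (13.9% did not overlap), a rise of 0.39 (SE 0.0977, adjusted p = 0.0421 by limma, 7.43% called). These 3 calls were lost in 5, 6 and 6 of 8 fits without 1 mouse, and all 3 without the filter on low values (adjusted p from 0.0524 to 0.0537 by limma). At week 24 CD mice had 153, 159, 158 and 154 FPKM and HFD mice 201, 196, 218 and 309.6 FPKM (10.1% did not overlap), but the change of 0.54 (SE 0.149) did not pass (adjusted p = 0.125 by limma, 0.837% called). At week 20 the change was 0.48 (SE 0.166, adjusted p = 0.182 by limma, 2.47% called) with overlapping groups, and at week 4 (0.0506% called) it was -0.06 (SE 0.156, adjusted p = 0.873 by limma). Markers of other liver cells moved with the diet, with 4 of 4 macrophage genes and 4 of 4 stromal genes higher and 3 of 6 hepatocyte genes lower as the mean over the weeks. The summed macrophage markers ran from 16.4 to 71.0 FPKM in CD livers and from 22.1 to 164 FPKM in HFD livers, and their part in the Pcx result was not tested.

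Slc2a2 in liver was apart between the diets at week 24 only, as were 10.1% of all genes at that week (8.14% higher in HFD). Its levels then were 51.3, 68.7, 64.5 and 71.4 FPKM in CD and 81.2, 97.1, 98.6 and 98.0 FPKM in HFD mice. The change of 0.55 (SE 0.129) did not pass (adjusted p = 0.0927 by limma). From week 4 to week 24 liver Slc2a2 fell by 0.64 in CD (SE 0.212, adjusted p = 0.0164 by limma, 36.7% called) and was at -0.01 in HFD mice (SE 0.212, adjusted p = 0.97 by limma, 23.0% called). Liver Fbp1 overlapped between the diets in 6 of 6 weeks, with group means between 560 and 877 FPKM, and it fell by 0.45 from week 4 to week 24 in CD (SE 0.163, adjusted p = 0.0287 by limma) and was at -0.04 in HFD mice (adjusted p = 0.894 by limma). Liver Pcx rose by 0.58 from week 4 to week 24 in HFD (SE 0.154, adjusted p = 0.00579 by limma) and was at -0.02 in CD mice (adjusted p = 0.935 by limma). The late minus early contrast in liver was 0.02 for Slc2a2, 0.07 for Pcx and -0.04 for Fbp1 and did not pass (adjusted p = 0.924 or higher by limma, 0.175% called).

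**Figure D4:**
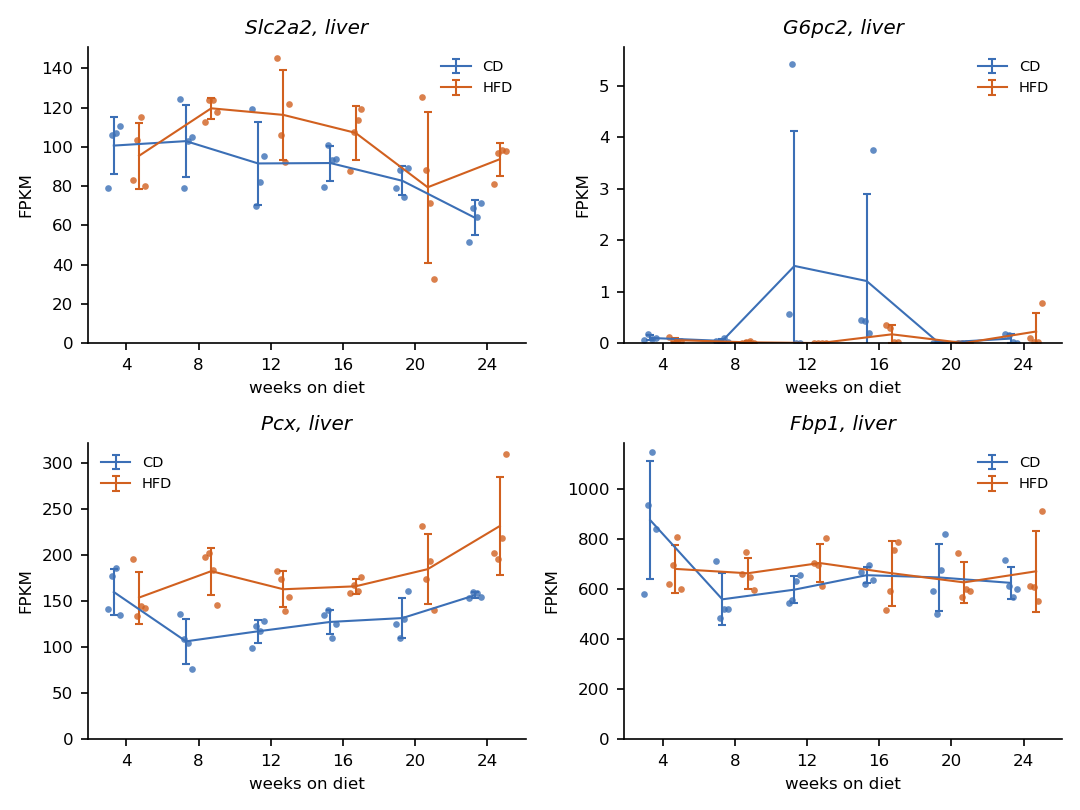
FPKM of Slc2a2, G6pc2, Pcx and Fbp1 in liver (vertical axes, linear, from 0) by weeks on diet (horizontal axes), with 1 point per mouse and lines through the means with SD of the 4 mice of each diet, CD in blue and HFD in orange. The mean of Pcx is higher in HFD from week 8 on, Fbp1 overlaps at each week, and G6pc2 is under 1 FPKM except for CD mice at 5.42 and 3.74 FPKM.

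The diet effects of Pcx, Fbp1 and Slc2a2 differed between the tissues of the same mice, by the contrast of islets minus liver over all 96 libraries (43.9% of 13346 genes tested were called). It was -0.63 for Pcx (SE 0.0721, adjusted p = 2.33e-11 by limma), which fell in islets and rose in liver, and -0.61 for Fbp1 (SE 0.0896, adjusted p = 5.47e-08 by limma). For Slc2a2 it was -0.54 (SE 0.125, adjusted p = 3.10e-04 by limma). G6pc2 entered this fit only through the islet libraries, so it gave no test of a difference between the tissues. The median of this contrast over all genes was -0.09.

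G6pc2 in liver was low, and its highest values were in the livers with the most insulin transcripts. It was listed at 0 in 16 of 48 liver libraries. Of the 21 liver libraries with Ins2 under 1 FPKM, 15 had G6pc2 at 0 and 6 had 0.02 to 0.04 FPKM. It reached 1 FPKM in 2 libraries, both CD, at 5.42 FPKM in mouse CD306 and 3.74 FPKM in mouse CD407, and these were the 2 libraries with Ins2 of at least 1000 FPKM. The islet share computed from Ins2 would give 5.91 and 4.20 FPKM of G6pc2 in these mice. In the HFD mouse HFD617 the measured and the computed values were 0.77 and 0.714 FPKM. Per 1000 FPKM of Ins1, G6pc2 stood at 5.05, 5.59 and 6.67 in these 3 livers and between 3.60 and 11.2 in the islets. In some livers with less insulin the measured value was above the computed one, 0.45 against 0.212 FPKM in CD401 and 0.35 against 0.17 FPKM in HFD411. In CD304 it was below, at 0.57 against 0.615 FPKM. How insulin transcripts came into liver libraries was not tested.

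**Figure D5:**
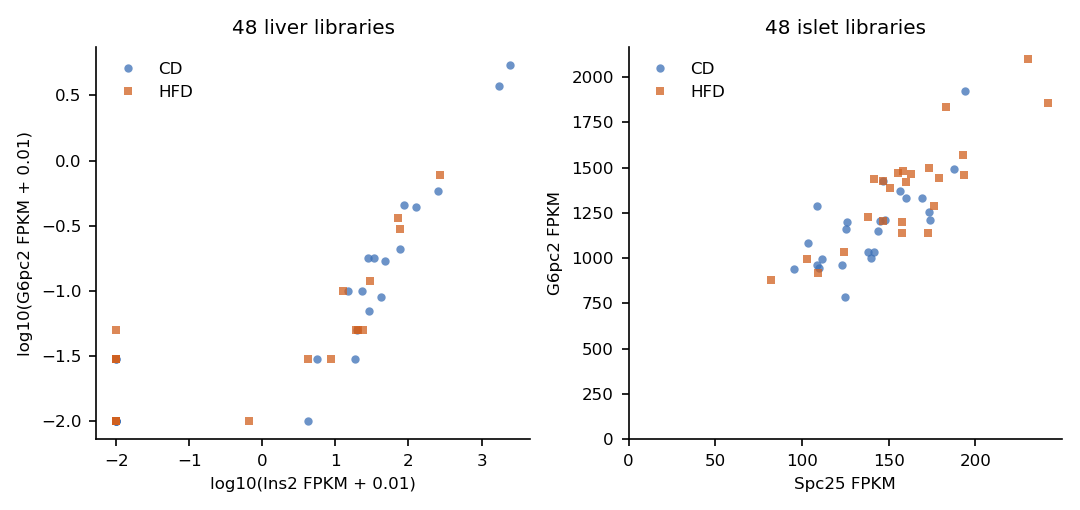
Left, G6pc2 against Ins2 in the 48 liver libraries, both as log10(FPKM + 0.01), so that points at -2 are values listed at 0; right, G6pc2 against its neighbour gene Spc25 in the 48 islet libraries in FPKM on linear axes from 0, with 1 point per library, CD as blue circles and HFD as orange squares. The liver points rise together up to 5.42 FPKM of G6pc2, and the islet points rise together from 82.1 to 242 FPKM of Spc25.

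The other genes of glucose uptake and use are given as lists, with called genes counted for the mean diet effect in islets, where 38.6% of all genes were called (16.6% higher and 22.0% lower) and the median over all genes was -0.01. The counts for glycolysis and for pyruvate cycling were near this share of all genes. Of 7 other glucose transporters tested, 1 rose and 3 fell, with a median of -0.15. Slc2a3, the high-affinity transporter GLUT3, fell by 0.35 from a median of 0.91 FPKM in CD to 0.445 FPKM in HFD islets, Slc2a10 fell by 0.18 and the urate carrier gene Slc2a9 by 0.15. Of 18 genes of glycolysis, 4 rose and 3 fell, with a median of 0.03. Hk1, a hexokinase of low level in the beta cell, fell by 0.38 from 2.55 to 1.64 FPKM, Aldoc fell by 0.16, and Pgk1, phosphoglycerate kinase, rose by 0.17 from 53.2 to 60.1 FPKM. The 3 tested genes that set fructose 2,6-bisphosphate, which inhibits the enzyme of Fbp1, did not pass, at -0.09 for Pfkfb3, 0.00429 for Pfkfb2 and 0.04 for Pfkfb4.

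On the side of Pcx, 4 of 14 genes of pyruvate cycling rose and 1 fell, with a median of 0.04. Me3, the mitochondrial malic enzyme that uses NADP, rose by 0.90 (SE 0.0728, adjusted p = 3.83e-13 by limma), from a median of 1.88 FPKM (1.17 to 2.89) in the 24 CD to 4.79 FPKM (2.59 to 6.57) in the 24 HFD islet libraries. This was the largest change among the genes named from these lists. Mdh1, the cytosolic malate dehydrogenase, rose by 0.17 and Glud1, glutamate dehydrogenase, fell by 0.14. Of 6 NADH shuttle genes, Got1 rose by 0.16, while Gpd2, the mitochondrial glycerol phosphate dehydrogenase, fell by 0.32 and Gpd1 by 0.16. Of 6 other genes of biotin carboxylases and biotin loading that were tested, 2 rose, Mccc1 by 0.11 and Pcca by 0.09. Beside G6pc2 and Fbp1, 2 of 4 tested relatives rose, Fbp2 by 0.26 from levels under 1 FPKM in median under both diets, and G6pc3, the ubiquitous glucose 6-phosphatase subunit, by 0.09. In liver, where 35.8% of all genes tested were called higher and 6.78% lower, 12 of 18 glycolysis genes rose and 1 fell, 3 of 12 pyruvate cycling genes rose, and 5 of 7 biotin carboxylase and loading genes rose. With median ratio scaling the share of higher genes among all called liver genes went from 84.1% to 55.7%.

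The genes whose islet levels were most like each member were sought by Pearson's r of log2(FPKM + 1) over the 48 islet libraries, among 11643 genes with a mean of at least 1 FPKM. These libraries share diet, week, insulin share and unknown depth, and the r are a description. For Slc2a2 they were Tmem215 (r = 0.86), Tmem229b (0.84) and Tmsb15b2 (0.80), and within groups of diet and week the r were 0.87, 0.80 and 0.70. For G6pc2 they were Spc25 (0.82), Sphkap (0.81) and Arhgef37 (0.80), at 0.81, 0.83 and 0.79 within groups. For Pcx they were Eml2 (0.88), Bcar1 (0.87) and Tkt (0.87), at 0.59, 0.49 and 0.57 within groups, and for Fbp1 they were Eef1a2 (0.91), Hhatl (0.90) and Rcn3 (0.90), at 0.57, 0.54 and 0.45 within groups. For each of the 3 genes named with Pcx and with Fbp1, r was thus lower between mice of a group than over all libraries. Among the members in islets, r was 0.57 between Pcx and Fbp1, 0.53 between Slc2a2 and Fbp1 and 0.14 between Slc2a2 and G6pc2, at 0.23, 0.34 and 0.32 within groups.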

How the data were processed

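Tissue, diet and week of each library were read from the labels, and the mouse number in the title ties the 1 islet and 1 liver library of each mouse. The authors selected poly(A) RNA, primed cDNA with random hexamers and sequenced on a BGISEQ-500. The submitters' processing notes name HISAT2 2.0.4, Bowtie2 2.2.5, RSEM 1.1.12, DESeq2 and GRCm38.p5, without their roles. FPKM per gene and library were deposited by the authors in 1 table with 2 decimals, and only these values were used. Its group means, log2 ratios, DEGseq p and q values, clusters and modules are the authors' own results and were not used. No read counts were derived, so no counting interval is given.

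FPKM were tested as log2(FPKM + 1) by limma 3.58.1 in R 4.3.3 using the options trend and robust. A gene entered a fit if 4 or more of its libraries had 1 FPKM or more, p-values were adjusted by Benjamini-Hochberg over all of them, and calls were made at 0.05. Each week was fitted alone (8 libraries). The mean, late minus early and week 24 minus week 4 contrasts used 12 groups of 1 tissue, and islets minus liver used 24 groups of both. Alternatives were a pseudocount of 0.1, median ratio scaling, no filter, 1 fit of all weeks, insulin left out of the total, each mouse left out and the mouse as block. For insulin left out of the total, each islet library was rescaled by its summed FPKM without Ins1 and Ins2. Subtraction of the other tissue's share, by Ins2 in liver and Alb in islets, was added after the data were seen. The fits were also run on simulated data with normal noise and 200 changed genes. A change of 0.4 on the log2 scale over 6 weeks was recovered in 96.5% of these genes in islets and 94.5% in liver. In 1 islet week, 61% were recovered at a change of 0.4 and 97% at 1. The changed genes all had means above that of Fbp1 in islets, so these shares do not cover islet Fbp1. The mouse number pairs the tissues because both came from 1 animal, and deviations from the group means correlated between the tissues of a mouse at a median r of 0.171 (range -0.106 to 0.329) over 9117 genes. Each mouse gave its own library, so p-values measure the spread between animals.

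Genes are named by a rule: the 4 members, up to 3 called genes with the largest change per pathway list, markers beside a result, and the 3 genes most like each member. The members and the lists were chosen with earlier results of these data known. Sequences came from RefSeq promoters of GRCm38.p6, and Python 3.11.15 with pandas 2.3.3, numpy 2.4.6 and matplotlib 3.10.9 made tables and plots. A few items are not reported here.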

Additional observations from a re-analysis of the deposited data

Results flagged for a closer look

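In 14 of 94 groups of 4 libraries, the extreme library of a member stood apart by Dixon's ratio, the gap to its nearest neighbour divided by the range of the group, which was above Dixon's 95% critical value for 4 samples. That value is set so that about 1 in 20 groups of independent, normally distributed values pass. Values of several genes from the same mice, some at or near 0 FPKM, need not meet this, so the count of 14 is not measured against chance. Of the 14 flagged groups, 5 were G6pc2 in liver. Mouse CD306 of week 12 (5.42 FPKM, ratio 0.895) and mouse CD407 of week 16 (3.74 FPKM, ratio 0.929) were the livers with the most insulin transcripts. Mouse HFD617 of week 24 had 0.77 FPKM (0.907), and mice CD502 of week 20 (0.02 FPKM, ratio 1.000) and HFD112 of week 4 (0.11 FPKM, ratio 1.000) stood over 3 equal values, near the last decimal of the table.

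For Slc2a2, the liver of CD101 at week 4 was low at 79.1 FPKM (0.849), that of HFD611 at week 24 was low at 81.2 FPKM (0.916), and the islets of CD306 at week 12 were high at 255 FPKM (0.841). The islets of CD608 at week 24 were high for G6pc2 at 1333 FPKM (0.897), and those of CD101 at week 4 for Pcx at 58.6 FPKM (0.876). For Fbp1, the islets of CD403 at week 16 were low at 1.95 FPKM (0.897) and those of HFD118 at week 4 high at 4.25 FPKM (0.857). The livers of CD203 at week 8 and of HFD617 at week 24 were high at 714 FPKM (0.843) and 913 FPKM (0.831). HFD118 also held the most hepatocyte transcripts of the islet libraries by summed markers, and its Krt19, a ductal gene, was at 13.8 FPKM. Their part in the Fbp1 value was not tested.

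The mean diet effect differed between islets and liver by a tested contrast, by -0.54 for Slc2a2, -0.63 for Pcx and -0.61 for Fbp1 on the log2 scale. The same contrast gave 0.46 for G6pc2 and 0.22 with the share of the other tissue subtracted, but this gene passed the filter only through islets, and the value is not read as a difference between the tissues.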

How the results depend on the processing

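The mean diet effects in islets of the 4 genes and the islet minus liver contrasts of Slc2a2, Pcx and Fbp1 kept their direction and their call under each alternative run, as did the mean effect on liver Pcx. With the mouse as replicate block, islets minus liver was -0.54 for Slc2a2, -0.63 for Pcx and -0.61 for Fbp1, and the block changed no call. The late minus early contrast of islet Fbp1 passed at -0.62 with a pseudocount of 0.1 and at -0.43 with insulin left out of the total. Liver Slc2a2 ranged from 0.13 to 0.24 over fits without 1 mouse, and passed only without HFD518. No value changed sign with a call.

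The weekly calls were less firm. In liver 3 pairs of gene and week were called, 1 with median ratio scaling and 0 by limma without the filter, where 6 had an unadjusted p under 0.05. In islets 8 were called, and 6 both with median ratio scaling and without the filter. Islet Pcx was lost with median ratio scaling at week 8 (adjusted p = 0.067 by limma) and week 20 (0.055), G6pc2 of week 8 without the filter (0.070) and in 1 fit of all weeks (0.110), and Fbp1 of week 12 with insulin left out (0.057). Over all genes, leaving out insulin moved the share of higher calls from 43.1% to 77.6% for the islet mean, and the median of all genes at week 12 from 0.01 to 0.26. Median ratio scaling moved it from 84.1% to 55.7% in liver and from 19.2% to 36.2% for islets minus liver. The causes were not tested. Changes of Fbp1 in islets rest on values of 0.58 to 4.25 FPKM, whose depth is unknown.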

Other observations

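Spc25, the gene whose islet levels were most like G6pc2, is also its neighbour on chromosome 2. By the deposited annotation it lies at chr2:69193895-69206213 on the minus strand, 4859 bases before the start of G6pc2, so that both genes are read away from each other. Spc25 encodes a subunit of the Ndc80 complex, which ties chromosomes to spindle fibres in dividing cells. In the 48 islet libraries it had a median of 147 FPKM (82.1 to 242), with a median of 158 FPKM under HFD and of 141 FPKM under CD, and in liver its median was 3.18 FPKM (0.64 to 6.02). The other subunit genes of the complex were low in islets, with medians of 0.175 FPKM for Ndc80, 0.195 FPKM for Nuf2 and 2.01 FPKM for Spc24. Their r with G6pc2 was 0.08, 0.14 and -0.05, where that of Spc25 was 0.82 over all libraries and 0.81 within groups.

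The next gene on the other side of G6pc2 is Abcb11, the bile salt export pump of the hepatocyte, 10288 bases away, with a median of 0.19 FPKM in islets and 74.0 FPKM in liver. The high islet level at this place was thus shared by G6pc2 and Spc25 and not by Abcb11, nor by Nostrin, 21742 bases away, at a median of 3.19 FPKM in islets. The neighbours and the Ndc80 subunits were chosen after the values were seen, and whether the libraries kept the strand is not stated in the sources used here. What links the levels of both genes was not tested.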
